A study of Mus musculus with 20 samples.

Results

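The 10 genes described here are the glucocorticoid receptor gene Nr3c1 and 9 genes known as targets of that receptor: Fkbp5, Tsc22d3, Zbtb16, Klf9, Sgk1, Errfi1, Rgs2, Mt1 and Mt2. They were followed in mouse pancreas just before and just after birth, with and without inceptor, a membrane protein known to restrain signalling by the insulin receptor. Members were taken by gene symbol from a list, each through the probe set that carries that symbol alone and has the highest mean. All 10 were found, out of 30062 genes with such a probe set, and each had 1 probe set. A gene was tested if at least 4 arrays had it above their own median, which held for 17992 genes and for all 10 members. The lowest member value on any array, 5.02 for Zbtb16 on P0 wild-type array 4, was above the highest array median of 4.94.

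Glucocorticoids are adrenal steroid hormones that surge in the circulation of mammals around birth and help organs adapt to life outside the uterus. The hormone enters the cell and binds the receptor, which is held ready by the Hsp90 chaperone machinery, moves to the nucleus and acts on DNA as a transcription factor. Fkbp5 and Tsc22d3 are widely used as readouts of receptor activity because their transcription follows the hormone in many tissues. Several of the other members also respond to other signals, such as metals (Mt1, Mt2), growth factors (Errfi1), insulin (Sgk1) or hormones that raise cyclic AMP (Rgs2).

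The arrays held 4 groups of C57BL/6J mouse pancreas. P0, the day of birth, had 6 arrays of Iir -/- animals, which lack inceptor, and 5 arrays of Iir +/+ animals. E18.5, embryonic day 18.5, had 5 arrays of Iir -/- animals and 4 arrays of Iir +/+ animals. Pups were starved for 5 h at P0, whereas at E18.5 it was the mother that went without food, for 2 h. Age, birth and length of fasting therefore cannot be told apart. The samples also carry a running number, from 1 to 12 at P0 and from 13 to 22 at E18.5. Whatever it orders cannot be told apart from age either. The labels give the sex as not determined and name no litter, no dissection batch and no origin of the deleted allele. Whether every array comes from an animal of its own is not stated either, so the p-values reflect only the variation among these arrays.

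The inceptor gene Elapor1, called Iir in the labels, checked the genotypes. Its log2 signal was 5.58 to 6.38 on the P0 knockout arrays, against 11.07 to 12.01 on the P0 wild-type arrays (log2 difference -5.49 ± 0.18 SE, adjusted p = 8.09e-13). Acinar markers (5 of 5 with a probe set) and islet markers (6 of 6) were above the array median on every array, which fits the pancreas label. Liver markers also were (8 of 8), and their mean log2 signal ran from 10.51 to 14.76 at P0 in knockouts, from 8.06 to 13.12 at P0 in wild type, from 10.59 to 14.36 at E18.5 in knockouts and from 10.93 to 13.66 at E18.5 in wild type. Intestinal or skeletal muscle markers had a mean above 7 on 4 arrays, P0 knockout array 4, E18.5 knockout arrays 1 and 2 and E18.5 wild-type array 4, called marker-rich from here on. Of 6 adrenal cortex markers, Star, Cyp11b1, Cyp21a1 and Nr5a1 were above the array median on no array, and the mean of the list stayed between 4.16 and 4.54. Cyp11a1, the 1 gene of that list that was tested, was called lower at P0 than at E18.5 in both genotypes. Its difference was -0.47 ± 0.10 in knockouts (limma adjusted p = 0.00205) and -0.68 ± 0.11 in wild type (adjusted p = 0.00137).

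The receptor's best known binding site is an inverted repeat, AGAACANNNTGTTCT. Windows of 300 bases around gene starts, from 250 bases before to 50 bases after, were taken from RefSeq on build GRCm38.p6 and searched on both strands. Of the members, 8 had 1 or more windows (16 in all), and none is listed for Nr3c1 or Zbtb16. The full repeat occurred in 3 of 32851 windows, which is 0.00913%, and 1 of those 3 belonged to Sgk1, a gene with 6 windows. In that window, chr10:21993640-21993939 on the plus strand, the repeat began 189 bases before the start site. A single arm of it, AGAACA on either strand, occurred in 19% of all windows. One Tsc22d3 window of 3, chrX:140600473-140600772 on the minus strand, held an arm 185 bases before its start site. A further 2 Sgk1 windows, chr10:21881934-21882233 and chr10:21991973-21992272, each held an arm too. The full repeat and the Tsc22d3 arm are shown 5′ to 3′, in capitals, as examples of the receptor's motif letters. The Sgk1 window also holds a further arm, left in lower case.
Sgk1: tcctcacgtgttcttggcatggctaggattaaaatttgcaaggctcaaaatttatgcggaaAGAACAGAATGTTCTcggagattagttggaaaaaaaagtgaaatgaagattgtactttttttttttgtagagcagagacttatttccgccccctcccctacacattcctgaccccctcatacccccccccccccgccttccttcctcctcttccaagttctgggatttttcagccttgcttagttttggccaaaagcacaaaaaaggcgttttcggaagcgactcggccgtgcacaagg
Tsc22d3: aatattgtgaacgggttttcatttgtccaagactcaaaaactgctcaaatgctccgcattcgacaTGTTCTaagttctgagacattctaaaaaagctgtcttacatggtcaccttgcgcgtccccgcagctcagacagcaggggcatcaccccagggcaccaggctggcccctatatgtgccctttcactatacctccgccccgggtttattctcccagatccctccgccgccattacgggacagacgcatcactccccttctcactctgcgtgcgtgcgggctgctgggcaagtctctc
The metallothioneins are the textbook case of metal control, through the core TGCACNC or TGCGCNC, which the metal sensing factor MTF-1 binds. These letters on either strand were present in 12.6% and 15.4% of all windows. The Mt2 window, chr8:94172368-94172667 on the plus strand, held 4 cores and the Mt1 window, chr8:94178839-94179138 on the plus strand, held 3, in capitals here. The Rgs2 window held 2 such cores and 1 Sgk1 window held 1. The start site used for the Mt1 window lies inside the annotated gene rather than at its first base.
Mt2: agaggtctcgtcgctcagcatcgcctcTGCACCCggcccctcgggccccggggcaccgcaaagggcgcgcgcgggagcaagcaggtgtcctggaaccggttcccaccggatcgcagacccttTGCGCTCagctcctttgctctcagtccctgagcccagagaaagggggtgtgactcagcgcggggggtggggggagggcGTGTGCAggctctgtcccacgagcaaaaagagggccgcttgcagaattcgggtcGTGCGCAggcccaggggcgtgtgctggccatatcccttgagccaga
Mt1: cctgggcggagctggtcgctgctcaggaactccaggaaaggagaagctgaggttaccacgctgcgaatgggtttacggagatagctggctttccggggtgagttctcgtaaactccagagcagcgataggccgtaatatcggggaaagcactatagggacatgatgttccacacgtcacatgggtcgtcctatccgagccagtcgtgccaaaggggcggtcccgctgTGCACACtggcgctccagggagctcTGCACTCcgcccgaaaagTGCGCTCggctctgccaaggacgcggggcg
The windows of Fkbp5, Klf9, Errfi1, Rgs2, Mt1 and Mt2 held neither the repeat nor an arm. One of the 2 Errfi1 windows held the cyclic AMP response element TGACGTCA, which 1.79% of all windows hold. A match describes letters in a window and not binding.

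**Figure D1:**
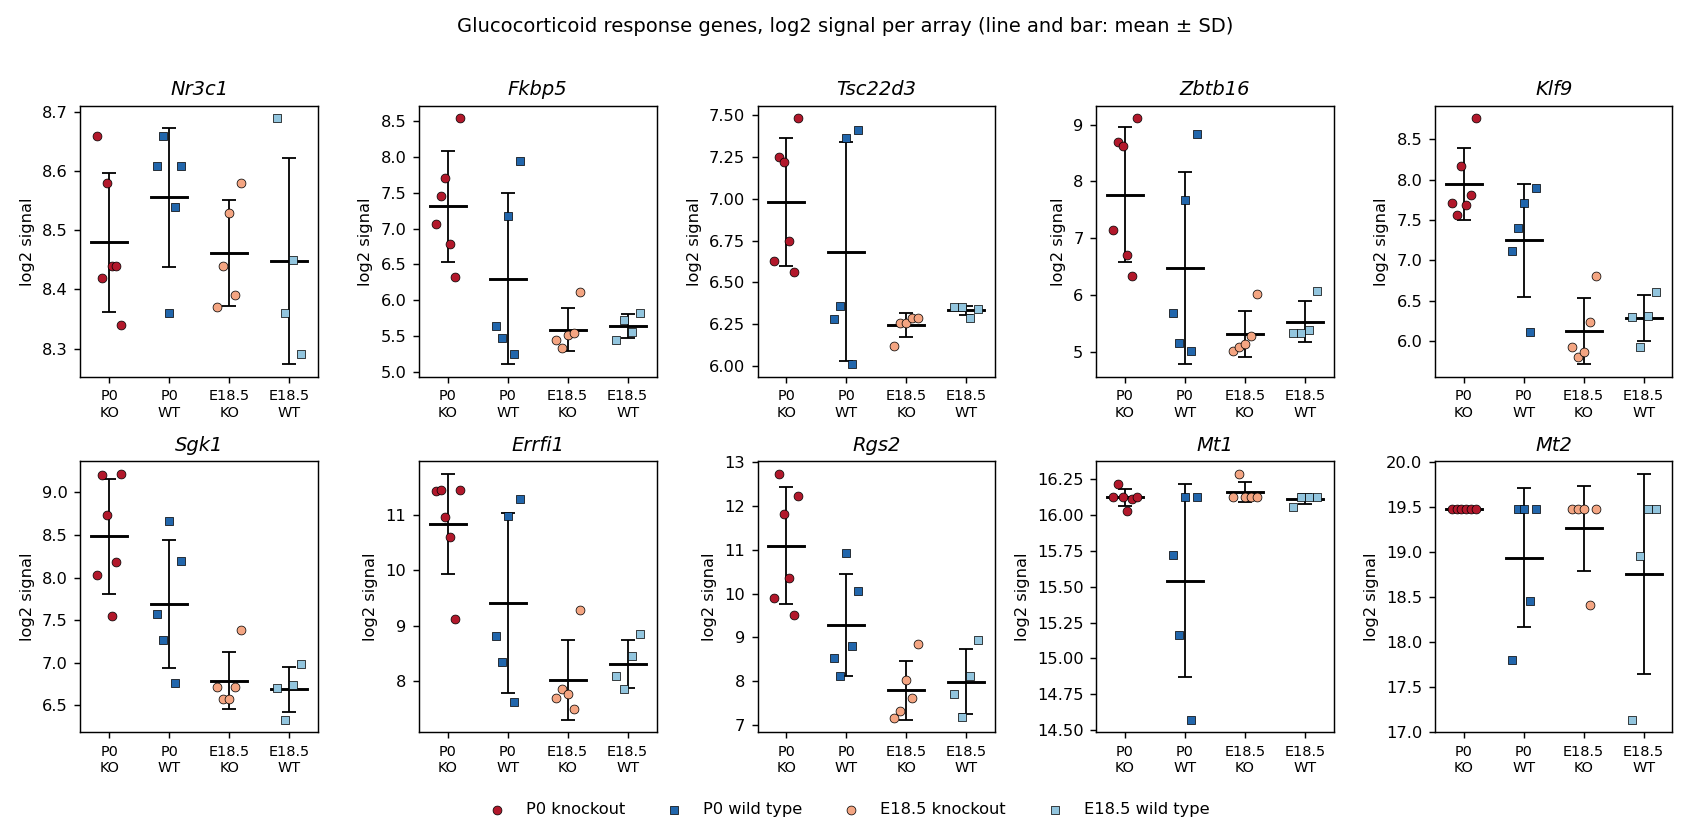
Log2 signal (vertical axis) of the 10 genes on each array, grouped along the horizontal axis by age and genotype, each panel on its own scale. Points are arrays, lines and bars are the mean ± SD. Fkbp5, Zbtb16 and Errfi1 spread widely at P0 and sit closer together at E18.5, in both genotypes; Nr3c1 spans 8.29 to 8.69 over all 20 arrays.

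The receptor gene itself passed no test, and all its values lay between 8.29 and 8.69. Nr3c1 had a log2 signal of 8.34 to 8.66 at P0 in knockouts (median 8.44), and values of 8.61, 8.66, 8.36, 8.54 and 8.61 at P0 in wild type. At E18.5 it had 8.37, 8.44, 8.53, 8.39 and 8.58 in knockouts and 8.69, 8.36, 8.45 and 8.29 in wild type. All 4 groups overlapped. The difference of P0 from E18.5 was 0.02 ± 0.08 SE in knockouts (limma adjusted p = 0.906) and 0.11 ± 0.09 in wild type (adjusted p = 0.46), and that of knockout from wild type at P0 was -0.08 ± 0.08 (adjusted p = 0.81).

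Fkbp5 encodes a co-chaperone of Hsp90 that lowers the receptor's affinity for hormone and so forms a short feedback loop. It had a log2 signal of 6.32 to 8.54 at P0 in knockouts (median 7.26), and values of 5.64, 5.48, 7.18, 5.25 and 7.95 at P0 in wild type. At E18.5 it had 5.45, 5.33, 5.52, 5.54 and 6.12 in knockouts and 5.45, 5.73, 5.56 and 5.82 in wild type. Every P0 knockout array lay above every E18.5 array, while in wild type only arrays 3 and 5 did so. In knockouts Fkbp5 rose at P0, 3.3-fold over E18.5 (log2 difference 1.72 ± 0.44 SE, limma adjusted p = 0.00836).

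Tsc22d3 encodes the glucocorticoid-induced leucine zipper protein, which restrains inflammatory transcription. It had a log2 signal of 6.56 to 7.48 at P0 in knockouts (median 6.99), and 6.28, 6.36, 7.36, 6.01 and 7.41 at P0 in wild type. At E18.5 it had 6.12, 6.26, 6.26, 6.29 and 6.29 in knockouts, and 6.35, 6.35, 6.29 and 6.34 in wild type. At P0 the SDs were 0.39 in knockouts and 0.65 in wild type, whereas the E18.5 arrays were nearly alike, with SDs of 0.07 in knockouts and 0.03 in wild type. Tsc22d3 rose at P0 in knockouts by 0.74 ± 0.23 SE on the log2 scale (adjusted p = 0.0257).

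The transcriptional repressor Zbtb16, a zinc finger protein that many cell types induce strongly under glucocorticoids, spread over about the same arrays as Fkbp5. Its log2 signal was 6.34 to 9.11 at P0 in knockouts (median 7.88), and 5.69, 5.17, 7.67, 5.02 and 8.83 at P0 in wild type. At E18.5 it was 5.03, 5.10, 5.15, 5.28 and 6.03 in knockouts and 5.33, 5.34, 5.40 and 6.08 in wild type. As with Fkbp5, P0 wild-type arrays 3 and 5 were among the knockouts and the other 3 were within or below the E18.5 wild-type range. Zbtb16 rose 5.47-fold in knockouts at P0 (2.45 ± 0.63, adjusted p = 0.00934).

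Klf9 is a Krüppel-like factor that also responds to thyroid hormone. Its log2 signal was 7.56 to 8.76 at P0 in knockouts (median 7.76), and 7.12, 7.40, 7.71, 6.11 and 7.90 at P0 in wild type. At E18.5 it was 5.92, 5.80, 5.86, 6.23 and 6.80 in knockouts and 6.30, 5.92, 6.31 and 6.61 in wild type. Here 4 of 5 P0 wild-type arrays, all but array 4, were above every E18.5 wild-type array. Klf9 had the smallest adjusted p of the members in knockouts between the ages (1.83 ± 0.28, 3.55-fold, adjusted p = 0.000274).

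Of the 3 signalling genes, Sgk1 encodes a kinase that controls ion channels and transporters. Its log2 signal was 7.55 to 9.22 at P0 in knockouts (median 8.46), and 7.57, 7.27, 8.66, 6.76 and 8.19 at P0 in wild type. At E18.5 it was 6.72, 6.57, 6.57, 6.71 and 7.38 in knockouts and 6.70, 6.33, 6.74 and 6.98 in wild type. P0 wild-type array 4 alone was within the E18.5 wild-type range. Sgk1 rose 3.25-fold at P0 in knockouts (1.70 ± 0.33, adjusted p = 0.00133).

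Errfi1 encodes an inhibitor of the epidermal growth factor receptor. Its log2 signal was 9.13 to 11.46 at P0 in knockouts (median 11.2), and 8.82, 8.35, 10.98, 7.63 and 11.29 at P0 in wild type. At E18.5 it was 7.70, 7.86, 7.76, 7.50 and 9.29 in knockouts and 8.10, 7.85, 8.46 and 8.85 in wild type. The knockout groups overlapped at a single point, since P0 array 5 (9.13) was below E18.5 array 5 (9.29). Errfi1 rose 7.06-fold at P0 in knockouts (2.82 ± 0.60, adjusted p = 0.00258).

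Rgs2 encodes a protein that switches off G protein signalling of the Gq class, and it had the largest difference of the 10. Its log2 signal was 9.51 to 12.74 at P0 in knockouts (median 11.09), and 8.52, 8.11, 10.92, 8.80 and 10.05 at P0 in wild type. At E18.5 it was 7.15, 7.32, 8.02, 7.61 and 8.84 in knockouts and 7.71, 7.17, 8.12 and 8.94 in wild type. In wild type arrays 3 and 5 again stood above the E18.5 arrays. Rgs2 rose 9.9-fold at P0 in knockouts (3.31 ± 0.61, adjusted p = 0.000917).

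The metallothioneins Mt1 and Mt2, small proteins that bind zinc and copper, could be measured only in part. Mt1 shared the log2 value 16.13 on 12 of 20 arrays and Mt2 shared 19.47 on 15 of 20, so differences among those arrays are not visible and a rise above the shared values may not show. Mt1 was 16.03 to 16.22 at P0 in knockouts (median 16.13), and 15.72, 15.16, 16.13, 14.57 and 16.13 at P0 in wild type. The lower values were those of P0 wild-type arrays 1, 2 and 4, the same arrays that were low for Fkbp5. At E18.5 Mt1 was 16.13, 16.29, 16.13, 16.13 and 16.13 in knockouts and 16.06, 16.13, 16.13 and 16.13 in wild type. Its difference of P0 from E18.5 was -0.04 ± 0.20 in knockouts (adjusted p = 0.926) and -0.57 ± 0.22 in wild type (adjusted p = 0.11). Without P0 wild-type array 5 the wild-type difference was -0.72 with an adjusted p of 0.0485.

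Mt2 was at 19.47 on all 6 P0 knockout arrays and at 17.80, 19.47, 19.47, 18.45 and 19.47 at P0 in wild type. At E18.5 it was at 19.47, 19.47, 19.47, 18.41 and 19.47 in knockouts and at 17.13, 18.95, 19.47 and 19.47 in wild type. The few arrays below the shared value were spread over 3 groups. Between the ages Mt2 differed by 0.21 ± 0.38 in knockouts (adjusted p = 0.744) and by 0.18 ± 0.42 in wild type (adjusted p = 0.851).

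**Figure D2:**
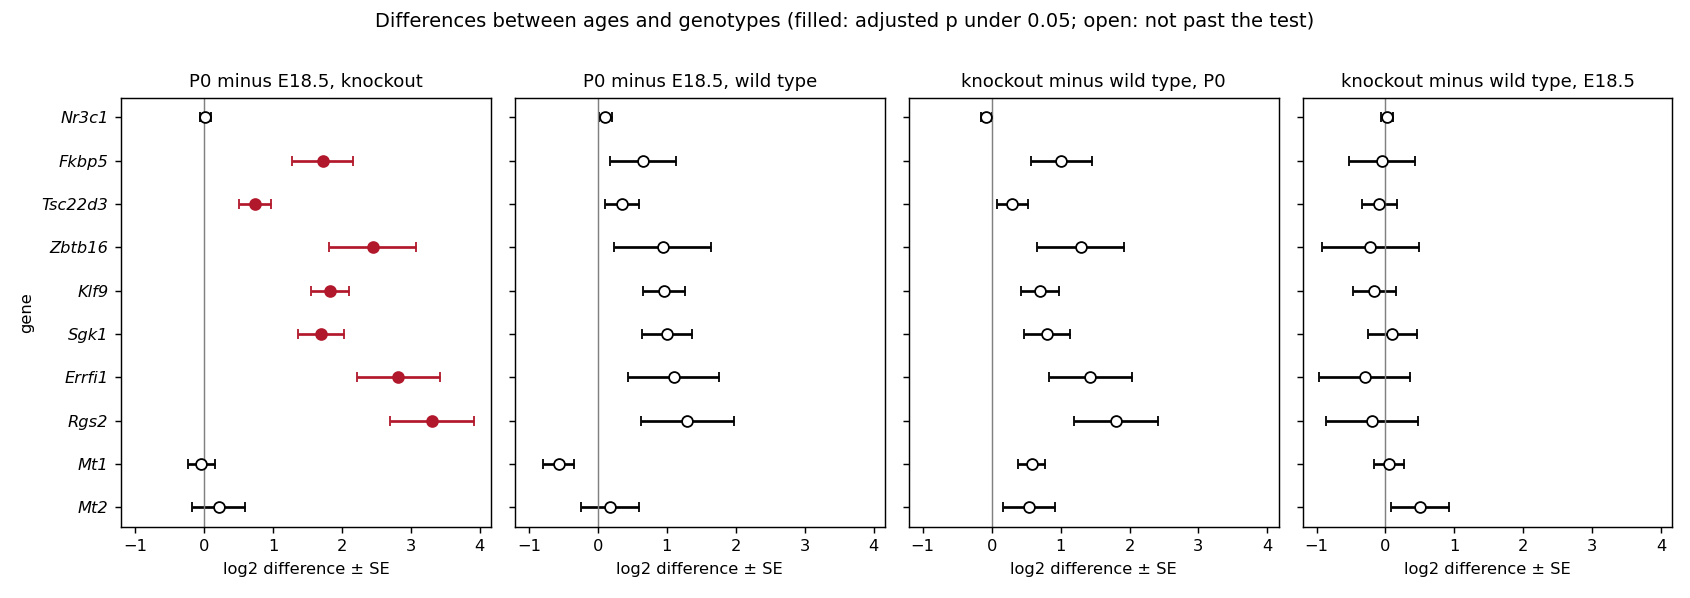
Log2 difference ± SE (horizontal axis) of each gene (vertical axis) in 4 comparisons, from left: P0 minus E18.5 in knockouts, the same in wild type, knockout minus wild type at P0, and the same at E18.5. Filled red points passed the test and open points did not; 7 genes passed in the first panel and none in the other panels.

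Counted together, 7 of 10 members rose between E18.5 and P0 in knockouts: Fkbp5, Tsc22d3, Zbtb16, Klf9, Sgk1, Errfi1 and Rgs2. Over all 17992 tested genes, 23.0% were called in this comparison in either direction and 11.3% were called higher at P0. The median log2 difference was 1.71 over the members and -0.004 over all tested genes. In 6 of these 7 genes, all but Errfi1, the P0 knockouts lay above the E18.5 knockouts without overlap, which 5.90% of tested genes did. Markers of pancreatic cell types differed in the same comparison. Of 5 acinar markers 3 were called in knockouts: Ptf1a fell by 3 ± 0.53 (adjusted p = 0.000713), Rbpjl fell by 2.61 ± 0.29 (1.98e-05) and Bhlha15 fell by 1.90 ± 0.30 (0.000284). The other 2, Cpa1 and Cel, had the same value on every array, so a change in them could not show. In wild type the same 3 were also called lower at P0. Ptf1a had -3.03 ± 0.59 (limma adjusted p = 0.00495), Bhlha15 -1.79 ± 0.33 (0.0039) and Rbpjl -1.26 ± 0.32 (0.0203). In knockouts the mean of the acinar list, Cpa1 and Cel included, was 12.67 to 13.78 at P0 and 14.43 to 14.92 at E18.5. Of 3 mesenchymal markers 2 rose, Dcn by 0.73 ± 0.15 (adjusted p = 0.00202) and Col3a1 by 0.67 ± 0.18 (0.0108), with list means of 12.03 to 12.67 at P0 and 11.28 to 12.10 at E18.5. Of 4 macrophage markers 2 rose, Cd68 by 0.64 ± 0.16 (adjusted p = 0.00751) and Csf1r by 0.42 ± 0.12 (0.0193), with list means of 8.32 to 9.08 at P0 and 7.91 to 8.82 at E18.5. Their part in the member differences was not tested. These are whole-organ values, so fewer cells of a type and less RNA per cell cannot be told apart. Without the 4 marker-rich arrays, 4 of the 7 passed, and Fkbp5 (1.69, adjusted p = 0.081), Tsc22d3 (0.75, adjusted p = 0.143) and Zbtb16 (2.49, adjusted p = 0.0716) did not. Tsc22d3 also missed the threshold without E18.5 knockout array 1 (adjusted p = 0.0561), P0 knockout array 3 (0.0534) or P0 knockout array 6 (0.0592), with the replicate number as a block (0.0633), and with the muscle and intestinal marker means as covariates (0.088).

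In wild type no member passed between the ages. Of the member differences 9 of 10 were above 0, with a median of 0.80. Over all tested genes 9182 of 17992 were above 0, with a median of 0.006. The members covary, so their signs are not separate results. Over all tested genes 8.87% were called in either direction and 4.76% were called higher at P0. Sgk1 (1 ± 0.36, adjusted p = 0.0921) and Klf9 (0.96 ± 0.31, adjusted p = 0.0639) came nearest. Rgs2 had 1.30 ± 0.67 (adjusted p = 0.252), Errfi1 1.10 ± 0.66 (adjusted p = 0.33), Zbtb16 0.94 ± 0.70 (adjusted p = 0.444), Fkbp5 0.66 ± 0.48 (adjusted p = 0.435) and Tsc22d3 0.35 ± 0.25 (adjusted p = 0.424). No member lay above E18.5 without overlap in wild type, while 6.24% of tested genes did. P0 wild-type array 4 decided 2 of these calls: without it Klf9 (1.25, adjusted p = 0.0101) and Sgk1 (1.24, adjusted p = 0.0391) passed, and Klf9 also passed without P0 knockout array 6 (0.96, adjusted p = 0.0491). Array weights likewise brought Klf9 (1.02, adjusted p = 0.0309) and Sgk1 (1.06, adjusted p = 0.0455) past the threshold.

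The direct comparison of knockouts with wild types at P0 asked whether loss of inceptor shifts these genes on the day of birth. No member passed, and over all tested genes 0.0111% were called, Elapor1 among them. Of the member differences 9 of 10 were above 0, with a median of 0.75. Over all tested genes 9245 of 17992 were above 0, with a median of 0.005. The members covary over the P0 arrays, so their signs are not separate results. Rgs2 had the largest, 1.81 ± 0.61 SE (unadjusted p = 0.00805, limma adjusted p = 0.464), with 6 of 6 knockouts above the wild-type mean. Errfi1 had 1.43 ± 0.60 (adjusted p = 0.549, 5 of 6), Zbtb16 1.29 ± 0.63 (adjusted p = 0.573, 5 of 6) and Fkbp5 1.01 ± 0.44 (adjusted p = 0.564, 6 of 6). Sgk1 had 0.80 ± 0.33 (adjusted p = 0.541, 5 of 6), Klf9 0.70 ± 0.28 (adjusted p = 0.535, 6 of 6) and Tsc22d3 0.30 ± 0.23 (adjusted p = 0.728, 4 of 6). Mt1 had 0.58 ± 0.20 (adjusted p = 0.464) and Mt2 0.54 ± 0.38 (adjusted p = 0.705), both with the shared values described above. The groups overlapped for all 10 genes, and in each of the 7 genes that rose between the ages wild-type arrays 3 and 5 lay within the range of the knockouts. Liver markers ran higher in the same direction, 8 of 8 above 0 with a median of 1.83 and none called, and their part in the member differences was not tested apart from the fit with their mean as a covariate, in which Rgs2 had 1.25, Fkbp5 0.90 and Errfi1 1.23, none called. Markers of adrenal medulla and sympathetic neurons ran the same way, 3 of 3 tested above 0 with a median of 1.26 and none called: Npy had 2.78 ± 1.05, Dbh 1.26 ± 0.78 and Th 0.70 ± 0.60. Their list mean was 5.75 to 7.74 in P0 knockouts and 5.18 to 6.83 in P0 wild types, Pnmt was above the array median on no array, and their part was not tested.

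At E18.5 no member passed between the genotypes in the fit, which shares 1 spread per gene over both ages. For Tsc22d3 the SE was 0.25, beside E18.5 SDs of 0.07 in knockouts and 0.03 in wild type. Its p-value therefore does not measure the E18.5 spread. Its 2 E18.5 groups did not overlap, with 5 of 5 knockouts below the wild-type mean (log2 difference -0.09). The share of all tested genes without overlap in this comparison was not counted. The log2 differences of knockout from wild type ran from -0.30 ± 0.66 for Errfi1 to 0.50 ± 0.42 for Mt2, 4 of 10 were above 0, the median was -0.07 and adjusted p-values were 0.975 to 1. Over all tested genes 0.0111% were called. The test of whether the genotype difference itself changed between the ages called no member and 0 genes in all, that is 0%, while 1257 genes had an unadjusted p under 0.05. Its largest member estimates were 2.01 ± 0.91 for Rgs2 (adjusted p = 0.704) and 1.72 ± 0.89 for Errfi1 (adjusted p = 0.734). So a rise called in knockouts and not in wild type was not shown to differ between the genotypes. For the 7 genes that rose in knockouts, P0 knockouts had the highest group mean and P0 wild types the next, and both E18.5 groups were lowest. Between neighbours in that order no difference passed the test where one was made.

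**Figure D3:**
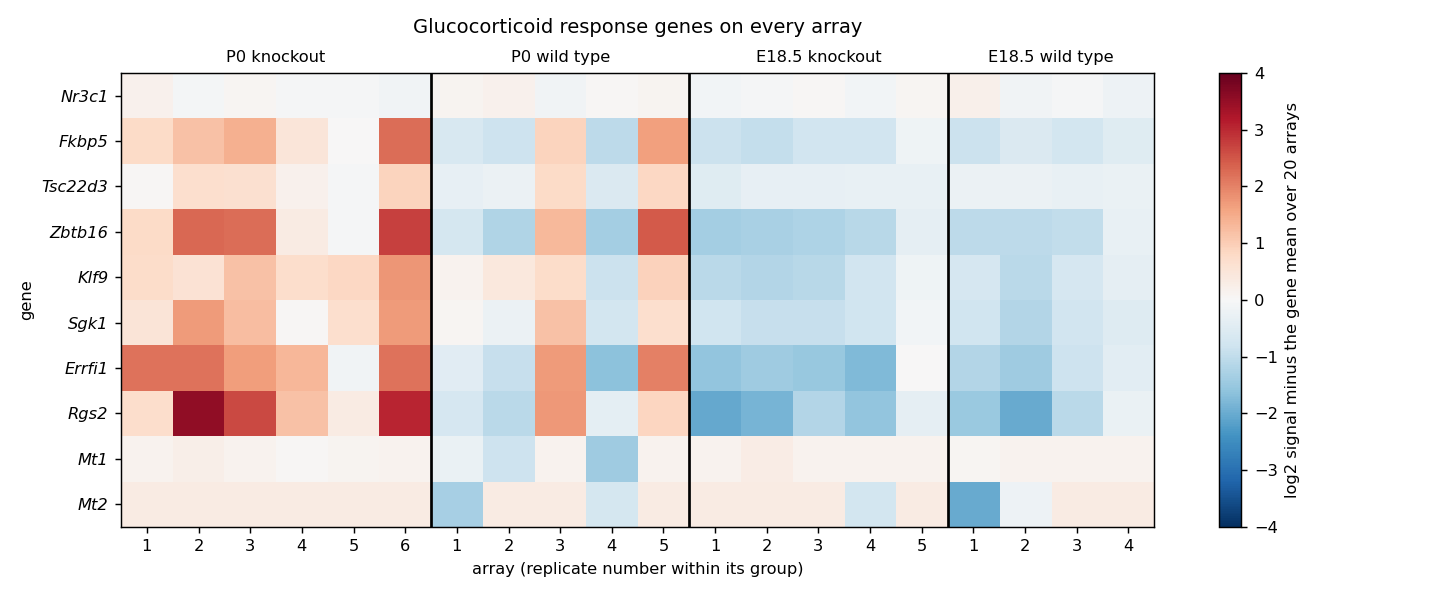
Colour gives the log2 signal of each gene (rows) on each array (columns, by group and replicate number) minus the gene's mean over the 20 arrays. At P0, Fkbp5, Tsc22d3, Zbtb16, Errfi1 and Rgs2 are higher on wild-type arrays 3 and 5 than on wild-type arrays 1, 2 and 4, and Nr3c1 stays pale throughout.

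Beyond the group means, the 7 genes that rose in knockouts were high and low on much the same arrays at P0, while Nr3c1 had a negative r with every other member (-0.62 to -0.28). P0 knockout array 6 had the highest value of the 11 P0 arrays in Fkbp5, Tsc22d3, Zbtb16, Klf9 and Sgk1 and the next highest in Errfi1 and Rgs2. P0 wild-type array 4 had the lowest value in 6 of these 7 genes, and for Rgs2 it ranked 9 of 11. Wild-type array 3 ranked from 3 to 5 in these 7 genes, and wild-type array 5 from 2 to 6. Wild-type array 1 ranked from 8 to 10 and wild-type array 2 from 9 to 11. Knockout array 5 was the lowest knockout in Fkbp5, Tsc22d3, Zbtb16, Errfi1 and Rgs2.

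Each other gene was fitted on the Fkbp5 level over the 11 P0 arrays, as the change in log2 signal per unit of Fkbp5 log2 signal. The fit called 323 genes, 1.80% of 17991 tested, and 1.21% with a positive slope. Among the 9 other members 6 were called, all positive: Zbtb16 with a slope of 1.38 ± 0.09 SE (adjusted p = 7.6e-05), Tsc22d3 0.46 ± 0.05 (0.00196), Errfi1 1.22 ± 0.16 (0.00379), Sgk1 0.63 ± 0.12 (0.0239), Rgs2 1.21 ± 0.23 (0.0295) and Klf9 0.51 ± 0.10 (0.0329). Mt1 had 0.38 ± 0.09 (adjusted p = 0.0769), Mt2 0.32 ± 0.13 (0.246) and Nr3c1 -0.05 ± 0.04 (0.591), and none of these 3 passed. Arrays of both genotypes enter this fit, so a genotype difference adds to it. With genotype as a covariate 3 members stayed past the threshold, and Sgk1 (0.58, adjusted p = 0.118), Rgs2 (1.02, 0.14) and Klf9 (0.46, 0.155) did not. Leaving out P0 knockout array 3, P0 knockout array 6 or P0 wild-type array 4 also left 3 members called. Klf9 further missed the threshold without P0 knockout array 1 or P0 wild-type array 1, 3 or 5 (adjusted p = 0.0501 to 0.0702). Rgs2 missed it without P0 wild-type array 1, 2 or 3 (0.0515 to 0.0973), and Sgk1 without P0 wild-type array 2 (0.0738). Zbtb16, Tsc22d3 and Errfi1 passed whichever 1 array was left out.

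**Figure D4:**
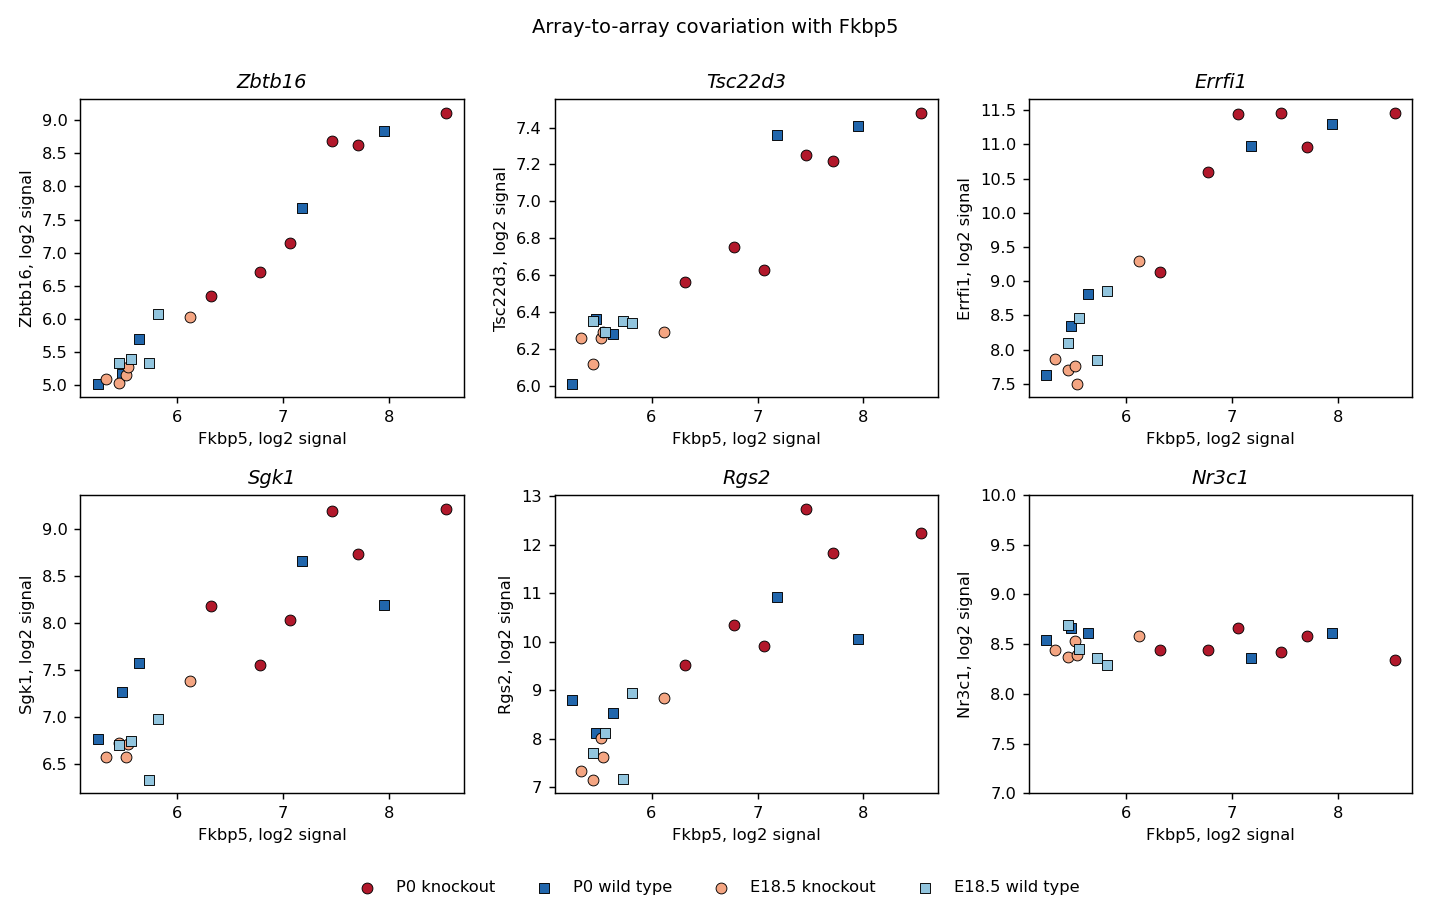
Log2 signal of 6 members (vertical axes) against that of Fkbp5 (horizontal axis), 1 point per array, circles for knockouts and squares for wild type. The P0 arrays spread along a rising line for Zbtb16 (r = 0.98 over 11 arrays) and Tsc22d3 (0.94), the E18.5 arrays bunch at its lower end, and Nr3c1 shows no such line (-0.42).

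As correlations, 9 relations were computed at each age, and the adjusted values over all genes are those of the slopes. Zbtb16 followed Fkbp5 with r = 0.98 and rho = 0.99 over the 11 P0 arrays (permutation p = 1e-05 for both, the smallest that the permutations can give), and r = 0.96 without P0 wild-type arrays 2 and 4, the farthest from the Fkbp5 median. Tsc22d3 had r = 0.94 (permutation p = 2e-05) and rho = 0.95 (7e-05), and r = 0.91 without those arrays. Errfi1 had r = 0.92 (permutation p = 6e-05) and rho = 0.85 (0.00126), and 0.85 without them. All 3 relations thus held without these 2 arrays, both at the low end of Fkbp5. The array highest for Fkbp5, P0 knockout array 6 (8.54), stayed in.

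The other members followed Fkbp5 less closely. Sgk1 had r = 0.86 (permutation p = 0.00091) and rho = 0.89 (0.00041), and r = 0.74 without the 2 arrays. Rgs2 had r = 0.85 (permutation p = 0.00147) and rho = 0.83 (0.00257), and 0.77 without them. For Klf9 r was 0.84 (permutation p = 0.00014) and rho 0.84 (0.00215), and r was 0.83 without them. Mt1 had r = 0.78 (permutation p = 0.00021) and rho = 0.86 (0.00151), and 0.72 without them, with its shared value on 5 of these 11 arrays. Mt2 had r = 0.61 (permutation p = 0.0545) and rho = 0.58 (0.0727). The receptor gene ran the other way without passing, at r = -0.42 (permutation p = 0.192) and rho = -0.40 (0.223).

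Within the 6 P0 knockouts alone, where genotype cannot contribute, Zbtb16 had r = 0.93 with Fkbp5 (exact permutation p = 0.00556) and rho = 0.94 (exact p = 0.0167). Tsc22d3 had r = 0.93 (exact p = 0.00972) and rho = 0.89 (exact p = 0.0333). Rgs2 had r = 0.81 (exact p = 0.0486) and rho = 0.77 (exact p = 0.103). Klf9 (r = 0.78, exact p = 0.0639), Sgk1 (0.77, exact p = 0.0667) and Errfi1 (0.73, exact p = 0.113) had positive values that did not reach 0.05. The 5 P0 wild-type arrays are too few for a correlation of their own.

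Liver markers moved with part of this. The mean of the 8 liver markers had r = 0.26 with Fkbp5 over the 11 P0 arrays (permutation p = 0.433, rho = 0.28), but r = 0.85 within the 6 P0 knockouts (exact p = 0.0417, rho = 0.71, exact p = 0.136), which fell to 0.33 without knockout arrays 5 and 6. P0 wild-type array 5, with high members (Fkbp5 7.95), had the lowest liver mean of all arrays at 8.06, and wild-type array 4, with low members (Fkbp5 5.25), had 12.97. With the liver mean as a covariate the P0 slopes of Zbtb16 (1.38, adjusted p = 0.000364), Tsc22d3 (0.46, 0.00609), Errfi1 (1.22, 0.0117), Rgs2 (1.05, 0.0194) and Sgk1 (0.60, 0.0433) still passed, and that of Klf9 (0.53, 0.051) did not. In the comparison of the ages in knockouts all 7 genes passed with this covariate. Of the cell type markers, only the acinar gene Rbpjl had a called slope on Fkbp5 at P0, and it was negative (-0.69 ± 0.11, limma adjusted p = 0.016). The acinar genes Bhlha15 (0.14 ± 0.13) and Ptf1a (0.09 ± 0.27) were not called. Rbpjl was also lower in P0 knockouts than in P0 wild types without passing (-1.17 ± 0.29, adjusted p = 0.176). Its part in the member slopes was not tested.

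**Figure D5:**
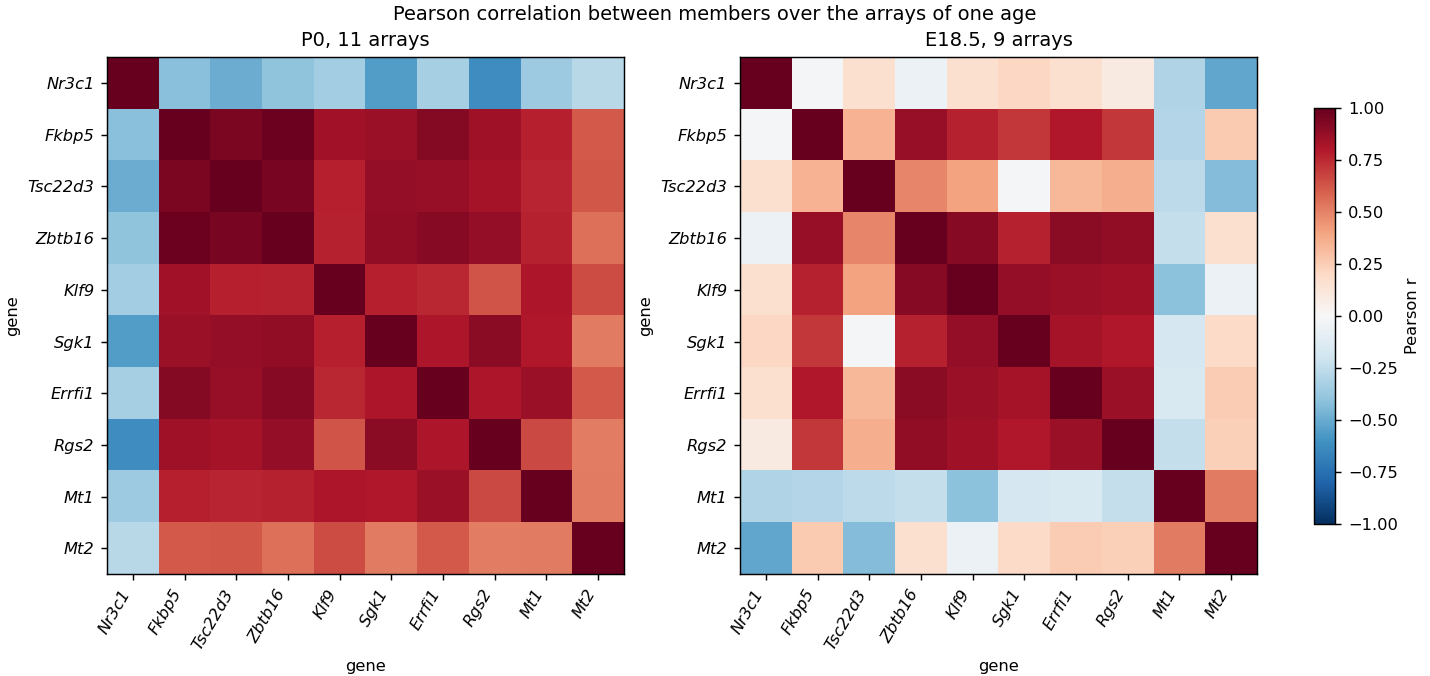
Pearson r (colour) for each pair of members over the 11 P0 arrays (left) and the 9 E18.5 arrays (right). At P0 the 7 genes that rose in knockouts form a block with r of 0.63 to 0.98; at E18.5 Tsc22d3 leaves that block, and Mt1, Mt2 and Nr3c1 stand outside it.

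Taken pair by pair, as a description, the 45 member pairs had a median r of 0.77 at P0, with 36 above 0 and a range of -0.62 to 0.98. The 21 pairs among the 7 genes that rose had a median of 0.86 and a lowest r of 0.63, where all pairs of tested genes had a median of 0 and a 95th percentile of 0.56. At E18.5 the same 21 pairs had a median of 0.80, from -0.01 to 0.91, against a 95th percentile of 0.62. Over deviations from the 4 group means, which remove age and genotype, they had a median of 0.80 and ran from 0.52 to 0.97 over 20 arrays.

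Before birth the covariation hung on 2 arrays, E18.5 knockout array 5 and E18.5 wild-type array 4. Zbtb16 had r = 0.87 with Fkbp5 over 9 arrays (exact permutation p = 0.0033) and 0.59 without those 2. Errfi1 had 0.80 (exact p = 0.0104) and 0.06 without them, Klf9 0.77 (exact p = 0.0129) and 0.15, Rgs2 0.71 (exact p = 0.0279) and 0.02, and Sgk1 0.71 (exact p = 0.0454) and -0.53. Tsc22d3, almost flat before birth, had 0.35 (exact p = 0.329). The relations of Errfi1, Klf9, Rgs2 and Sgk1 thus rested on those arrays. Knockout array 5 had Errfi1 at 9.29 and Sgk1 at 7.38, and wild-type array 4 had Rgs2 at 8.94 and Zbtb16 at 6.08. Both arrays also had high liver marker means, 14.36 and 13.61, and the liver mean had r = 0.82 with Fkbp5 at E18.5 (exact p = 0.00342, rho = 0.82, exact p = 0.00959), and 0.57 without them. The slope fit at E18.5 called 0 genes by limma, that is 0%, with 1322 at an unadjusted p under 0.05. On simulated slopes of 1 that fit recovered 0%, with each gene's spread pooled over all 4 groups rather than taken at E18.5. Larger slopes, such as the uncalled 2 ± 0.52 of Errfi1 and 2 ± 0.67 of Rgs2, were not simulated. No conclusion about these genes is drawn from the count.

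Zbtb16 was also the gene most like Fkbp5 once group means were removed: over 20 arrays its r was 0.97, and none of 12392 tested protein-coding genes outside the list had a higher one. For Tsc22d3 (0.94) 10 of them did, for Errfi1 (0.87) 36, for Sgk1 (0.80) 110, for Rgs2 (0.76) 163 and for Klf9 (0.75) 185. The 5 closest genes outside the list were Klk1b24 (r = 0.96), a glandular kallikrein with near-identical relatives whose signals may mix, Rhobtb1 (0.95), Fbxo31 (0.95), a subunit of a ubiquitin ligase, Arg2 (0.95), the mitochondrial arginase, and Carmil1 (0.95), a regulator of actin capping. Like Fkbp5, their P0 group means were higher in knockouts than in wild type, for example 10.09 and 9.32 for Klk1b24 and 8.21 and 7.53 for Rhobtb1. Fkbp5 spread more at P0 (SD 0.78 in knockouts, 1.20 in wild type) than at E18.5 (0.30 and 0.16). The r over 20 arrays therefore rests mostly on the P0 arrays. At P0 alone these 5 genes had r of 0.96 to 0.98, and at E18.5 alone from 0.49 (Arg2) to 0.75 (Klk1b24 and Rhobtb1). At E18.5 Zbtb16 had 0.87 and Tsc22d3 0.35.

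A wider list of 18 other glucocorticoid targets gave a partial parallel. Of its 15 tested genes, 8 rose at P0 in knockouts, with a median difference of 0.71 over the list. Of all tested genes, 11.3% were called higher at P0 in knockouts and 4.76% in wild type. Pdk4, a kinase that shuts pyruvate out of the mitochondrial cycle in fasting, rose by 4.52 ± 0.82 (adjusted p = 0.000868), and the clock gene Per1 by 1.43 ± 0.30 (adjusted p = 0.00266). Fam107a rose by 0.96 ± 0.28 (adjusted p = 0.0199) and the NF-kappaB inhibitor gene Nfkbia by 0.94 ± 0.18 (adjusted p = 0.0015). In wild type 3 rose, Pdk4 by 4.63 ± 0.91 (adjusted p = 0.00544), Angptl4, an inhibitor of lipoprotein lipase, by 0.95 ± 0.16 (adjusted p = 0.00224) and Nfkbia by 0.67 ± 0.20 (adjusted p = 0.049). Without the 4 marker-rich arrays these counts were 4 in knockouts (Cebpd, Nfkbia, Pdk4 and Per1) and 2 in wild type.

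Pdk4 thus rose in both genotypes by a similar amount, and at P0 it averaged 11.56 in knockouts and 11.70 in wild type. Between genotypes at P0 none of the 15 passed, with 12 above 0 and a median of 0.29. Angptl4 went the opposite way to the members, at 4.9 in knockouts and 5.69 in wild type (-0.79 ± 0.14, adjusted p = 0.0952). Cebpb (0.29 ± 0.12, adjusted p = 0.532) and Cebpd (0.40 ± 0.16, adjusted p = 0.541) followed in order of p. On the Fkbp5 level at P0, 4 of the 15 had a called slope: Ddit4, an inhibitor of mTORC1 (0.73 ± 0.16, adjusted p = 0.044), the cell cycle inhibitor gene Cdkn1a (0.67 ± 0.14, 0.0367), Fam107a (0.53 ± 0.08, 0.00714) and Map3k6 (0.27 ± 0.05, 0.0302). A called positive slope was found for 1.21% of all tested genes. Neither Ddit4 (0.58 ± 0.40, adjusted p = 0.324) nor Cdkn1a (0.71 ± 0.39, adjusted p = 0.213) passed between the ages in knockouts.

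Among the genes that carry and assist the receptor, 10 of 14 listed had a probe set and 8 were tested. Fkbp4, the co-chaperone that competes with Fkbp5 for the receptor complex and favours its transport, fell by 1.10 ± 0.14 at P0 in knockouts (adjusted p = 5.12e-05) and by 0.85 ± 0.15 in wild type (adjusted p = 0.00328). Its group means were 9.46 at P0 and 10.55 at E18.5 in knockouts, and 9.62 and 10.47 in wild type. Stip1, which links Hsp70 to Hsp90, fell by 0.78 ± 0.20 in knockouts (adjusted p = 0.00888), and its difference in wild type was -0.55 ± 0.22 (adjusted p = 0.128). The coactivator gene Ncoa1 rose by 0.31 ± 0.09 in knockouts (adjusted p = 0.021) and by 0.44 ± 0.10 in wild type (adjusted p = 0.0146). Without the marker-rich arrays Fkbp4 alone of these passed, in both genotypes.

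Of 8 zinc handling genes 6 were tested. The zinc importer gene Slc39a10 fell by 0.73 ± 0.17 in knockouts (adjusted p = 0.00478) and by 0.63 ± 0.19 in wild type (adjusted p = 0.0431). The zinc exporter gene Slc30a1 rose by 0.32 ± 0.11 in knockouts (adjusted p = 0.0493) and was not called without the marker-rich arrays. Mtf1, which encodes the metal sensing factor of the metallothionein promoters, had -0.04 ± 0.08 in knockouts (adjusted p = 0.78) and -0.12 ± 0.09 in wild type (adjusted p = 0.423). Of 6 other RGS genes tested, the relatives of Rgs2, limma called 0 in any comparison, with median differences between the ages of 0.02 in each genotype.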

How the data were processed

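RNA was measured on 20 Affymetrix mouse arrays after amplification with the Ovation PicoSL WTA V2 and Encore Biotin kits, per the labels. The deposited values are log2 signals per probe set, made by the authors with RMA in Affymetrix Expression Console 1.4.1.46, per the submitters' processing notes. RMA sets all arrays to 1 distribution, and array medians lay between 4.81 and 4.94. The number of arrays limits precision. Of 65956 probe sets, 30604 carried 1 gene symbol, 2146 several and 33206 none in the platform table, and symbols were updated through RefSeq. The array's own genome build is not given in the sources used here.

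The 20 arrays entered 1 linear model of 4 group means (limma 3.58.1, R 4.3.3, two-sided). P-values were adjusted over 17992 tested genes by the Benjamini-Hochberg method, with calls made at an adjusted p under 0.05. Replicate numbers were not used as pairs. Correlations used 100000 permutations (all orders where exact). Figures used matplotlib 3.10.9. On simulated data the fit recovered 90.8% of log2 changes of 1 between genotypes at P0, and 91.9% in knockouts and 86% in wild type between the ages. The changed genes were drawn from all tested genes, with each gene's spread pooled over the 4 groups. Members that spread widely at P0, such as Zbtb16 (SD 1.69 in wild type), were not simulated on their own. These shares therefore do not give the chance of a call for such members.

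The members, the other gene lists and the rule for named genes (members, Elapor1, the 5 coding genes most like Fkbp5, and up to 4 called genes a list and comparison, or up to 3 uncalled ones) were chosen with earlier results of these data known. Alternatives covered filters, normalization, weights, blocks, covariates and left-out arrays.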

Additional observations from a re-analysis of the deposited data

Results flagged for a closer look

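Within groups of 4 to 6 arrays, 10 member values stood apart from the rest of their group by Dixon's gap test, in 40 groups tested. Chance gives about 1 in 20 groups where groups are independent. These groups share the same 20 arrays and the members covary, so the 10 values are not separate events and cannot be set against that rate. On E18.5 knockout array 5, Fkbp5 (6.12), Zbtb16 (6.03), Sgk1 (7.38) and Errfi1 (9.29) were each far above the other 4 knockouts. That array also had the highest liver marker mean of the E18.5 arrays, 14.36. Zbtb16 on E18.5 wild-type array 4 (6.08) was likewise far above its group. Errfi1 on P0 knockout array 5 (9.13) and Tsc22d3 on E18.5 knockout array 1 (6.12) were far below theirs. For the metallothioneins, whose other values were mostly one shared number, Mt1 stood apart on E18.5 knockout array 2 (16.29) and E18.5 wild-type array 1 (16.06), and Mt2 on E18.5 knockout array 4 (18.41).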

How the results depend on the processing

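The count of 7 members called higher at P0 in knockouts was 6 or 7 when any 1 array was left out, and 4 without the 4 marker-rich arrays, a setting chosen after seeing the data. In wild type it was 0, 2 with array weights, and 0 to 2 with 1 array left out. No setting called a member between genotypes at either age or in the test of whether that difference changed with age. Members associated with Fkbp5 at P0 numbered 6, 3 with genotype as a covariate and 3 to 6 with 1 array left out.

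Over all genes, the calls between genotypes at P0 (2) were 1 with array weights, with the groups compared alone, with the replicate block, with muscle and intestinal covariates and without the marker-rich arrays, 37 with the liver covariate, and 1 to 45 with 1 array left out (45 without knockout array 1, 40 without wild-type array 1, 11 without wild-type array 3). At E18.5 (2) they were 5 with array weights and 2 to 4 with 1 array left out (4 without E18.5 knockout array 2 or P0 wild-type array 1). Between the ages in knockouts (4139) they were 2312 with muscle and intestinal covariates, 1750 without the marker-rich arrays and 3293 to 4395 with 1 array left out. In wild type (1595) they were 1047 with the groups compared alone, 1032 with muscle and intestinal covariates and 667 to 1822 with 1 array left out (667 without E18.5 wild-type array 2, 740 without array 1, 939 without array 3, 986 without P0 wild-type array 3). For the change of the genotype difference with age they were 0 to 34 (34 without P0 wild-type array 1). Genes associated with Fkbp5 at P0 (323) were 75 with the genotype covariate and 81 to 320 with 1 array left out, lowest without wild-type array 4, and 205, 180, 109 and 186 without knockout array 3 and wild-type arrays 1, 2 and 5. At E18.5 (0) they were 0 to 6 (6 without wild-type array 3).

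Signs turned only for differences that passed no test. For knockout minus wild type at E18.5, Nr3c1 (0.02) was -0.02 after quantile normalization, -0.02 after cyclic loess and -0.01 with the liver covariate. Fkbp5 (-0.05) was 0 with the liver covariate, 0.02 with muscle and intestinal covariates and 0.14 without the marker-rich arrays. Without those arrays Zbtb16 was 0.14, Klf9 0.12, Errfi1 0.04 and Rgs2 0.49, and Rgs2 was 0.06 with the liver covariate. For P0 minus E18.5 in knockouts, Nr3c1 was -0.03 after quantile normalization, -0.01 after cyclic loess, -0.07 with muscle and intestinal covariates and -0.01 without the marker-rich arrays, and Mt1 was 0.01 with the liver covariate and 0.01 without the marker-rich arrays. The change of the Mt2 genotype difference with age was -0.20 with the liver covariate and -0.06 without the marker-rich arrays. At E18.5 the Fkbp5 slopes of Nr3c1 (0.28) and Mt2 (-0.21) turned with the liver covariate. With 1 array left out, the E18.5 genotype difference ran from -0.18 to 0.02 for Fkbp5, -0.04 to 0.74 for Mt2, -0.04 to 0.10 for Nr3c1, -0.47 to 0.12 for Rgs2 and -0.05 to 0.20 for Sgk1. The difference between the ages ran from -0.02 to 0.05 for Nr3c1 in knockouts and from -0.37 to 0.46 for Mt2 in wild type, and the change of the genotype difference from -0.25 to 0.58 for Mt2. E18.5 slopes ran from -0.16 to 0.04 for Mt1 and from -0.44 to 0.09 for Nr3c1. The cause of these shifts was not tested.

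Deviations of same-numbered arrays correlated at 0.04, 0.041, 0.116, 0.245 and -0.031 at P0 and at 0.093, 0.179, 0.123 and 0.224 at E18.5. Arrays with different numbers were not compared in this way, so these values cannot decide whether replicate numbers pair the samples. With the replicate block 1 gene was called between genotypes at P0, and among members Tsc22d3 alone changed its call. The groups compared alone give no value for the change of the genotype difference with age.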
